A study of Homo sapiens with 4 samples.

Results

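The colony-stimulating factor genes CSF1, CSF2 and CSF3 were examined in human prostate cancer cells with and without knockdown of ESS2. They are 3 of the 25121 genes with a symbol on the array and are read by 6 of its 58196 probes. All probes whose transcript accession belongs to one of these genes were taken. The group was chosen from measured values of the PC3 comparison, in which CSF3 had one of the largest falls, so the PC3 values are given as a description and support nothing. The rule names no DU145 value, although the genes were chosen with earlier results of both lines known.

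Total RNA of 4 conditions was measured on 4 one-colour Agilent expression arrays, with 1 array per condition. PC3-shC and DU145-shC cells carried an shRNA against luciferase, and PC3-shESS2 and DU145-shESS2 cells carried an shRNA against ESS2, a nuclear protein that associates with the spliceosome. PC3 and DU145 are established, androgen-insensitive human prostate cancer lines, and the study asked how depletion of ESS2 changes their gene expression. The labels speak of lentiviral transduction of both lines, whereas the study's methods describe plasmid transfection with drug selection of stable cells and name PC3 alone, a difference not resolved here. Each condition is 1 RNA sample.

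CSF1 (M-CSF), CSF2 (GM-CSF) and CSF3 (G-CSF) are secreted growth factors of the myeloid lineage. CSF1 keeps monocytes and macrophages alive through the receptor tyrosine kinase CSF1R, CSF2 acts on granulocytes, macrophages and dendritic cells through CSF2RA with the shared chain CSF2RB, and CSF3 drives neutrophil production through CSF3R. Their genes are induced by inflammatory signals such as interleukin 1 and TNF through NF-κB and partner factors, and the mRNAs of CSF2 and CSF3 carry AU-rich elements that speed their decay. Epithelial tumour cells, prostate cancer lines among them, are known to secrete members of this group.

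Of the members, only CSF2 has an entry in the RefSeq promoter table (GRCh38.p14), and CSF1 and CSF3 were not matched there. The CSF2 sequence is shown because CSF2 is the member that was lower with shESS2 in both lines. It covers the 250 bases before the transcription start, chr5:132073539-132073788 on the plus strand, written 5′ to 3′. The capitals mark GAGATTCC, the core of the CK-1 element known from this promoter.

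CSF2 promoter: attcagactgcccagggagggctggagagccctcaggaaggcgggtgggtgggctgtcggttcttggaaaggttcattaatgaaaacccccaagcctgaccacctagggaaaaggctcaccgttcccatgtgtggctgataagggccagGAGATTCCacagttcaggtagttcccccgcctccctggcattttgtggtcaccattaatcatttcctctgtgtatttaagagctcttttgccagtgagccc

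The window has a GC content of 54%. GAGATTCC starts at position −101 from the transcription start, and 0.78% of 27305 promoters of the same length hold it on either strand. GGAAA, the core read by NFAT factors and found within some NF-κB sites, occurs 3 times, and 56% of promoters hold it. The general NF-κB consensus, held by 9.57% of promoters, had no full match in this window. A site that departs from the consensus by a letter would not be counted, so NF-κB sites of other letters are not excluded. The AP-1 letters TGANTCA, held by 6.6%, and the C/EBP letters TTNNGNAA, held by 33.6%, had no match either. All motifs were searched on both strands, and a match is a description of letters and not of binding.

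ESS2 itself was lower on both shESS2 arrays. The ESS2 signal was 133 in PC3-shC and 53.6 in PC3-shESS2, a 2.74-fold lower level, and 85.7 in DU145-shC and 17.3 in DU145-shESS2, a 5.09-fold lower level. Signals are the processed spot intensities of the scanner software, and every ratio is taken after scaling each array by the 75th percentile of its spots, which lay between 212 and 290. A spot counts as dim when the software does not call it well above background. Between 50.8 and 52.6% of spots passed that call on the 4 arrays, and the lowest passing signals were 8.15 to 9.02. A dim value in 1 condition gives only a bound ("at least"), and dim values in both give no fold. The error given with a log2 ratio is the software's own estimate for the spots and covers neither hybridization nor culture. Across probes spotted 10 times with signals of 20 to 400, the median SD of the log2 ratio was 0.136 in PC3 and 0.108 in DU145.

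CSF3, the granulocyte factor, read highest in PC3-shC cells, far lower in PC3-shESS2 cells and at background in DU145. On its brighter probe (A_23_P501754) the signal was 7200 in PC3-shC, 45.9 in PC3-shESS2, 1.75 in DU145-shC and 1.63 in DU145-shESS2. Both DU145 values were dim, whereas PC3-shESS2 still read above background. The log2 ratio of shESS2 to shC in PC3 was −7.43 ± 0.21, or 173-fold lower. The other probe (A_33_P3222424), of the same transcript, read 971 in PC3-shC, and its signals of 8.99, 1.73 and 1.62 on the remaining arrays were all dim. On that probe CSF3 was at least 119-fold lower in PC3-shESS2 than in PC3-shC. The direction was thus the same on both CSF3 probes in PC3, and in DU145 neither probe gives a fold. These are bulk RNA values, in which fewer cells that express a gene and less of its RNA per cell cannot be told apart.

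CSF2, the granulocyte-macrophage factor, was lower with ESS2 knockdown in both lines. Its single probe (A_23_P133408) read 171 in PC3-shC, 30.0 in PC3-shESS2, 106 in DU145-shC and 4.20 in DU145-shESS2, of which the last was dim. In PC3 the log2 ratio was −2.65 ± 0.23, or 6.29-fold lower. In DU145 CSF2 was at least 13.4-fold lower, a log2 bound of −3.74. With normexp background correction, which compresses dim signals, the log2 ratios were −1.52 in PC3 and −1.56 in DU145. CSF2 thus read lower in both lines. The DU145 bound lay 1.09 beyond the PC3 ratio on the log2 scale, a difference that was not tested and that normexp reduces to nearly 0.

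CSF1, the macrophage factor, gave a smaller and less uniform picture across its 3 probes. The brightest probe (A_33_P3354935, NM_172212) read 197 in PC3-shC, 142 in PC3-shESS2, 236 in DU145-shC and 238 in DU145-shESS2. Its log2 ratio was −0.61 ± 0.21 in PC3 and −0.03 ± 0.20 in DU145, so that the DU145 difference lay within the error of the spots. The second probe (A_33_P3354940, NM_000757) read 73.8, 29.4, 110 and 206 in the same order of arrays. It was 2.77-fold lower with shESS2 in PC3 (log2 ratio −1.47 ± 0.23) and 1.82-fold higher with shESS2 in DU145 (0.86 ± 0.21). The third probe (A_33_P3354945, NM_172210) was dim on both PC3 arrays, at 5.72 and 2.36, and read 13.4 in DU145-shC and 20.4 in DU145-shESS2, a log2 ratio of 0.57 ± 0.35. The probes are assigned to different CSF1 transcripts, and which isoforms each of them detects was not determined. For PC3 the mean over the 2 probes measured on both arrays, an alternative chosen after seeing the data, gives −1.04 and so passes 2-fold. For DU145 the reading depends on the probe, as the brightest showed no change beyond the error of the spots and the others read higher. The mean over the CSF1 probes gives 0.47 there in place of −0.03.

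**Figure D1:**
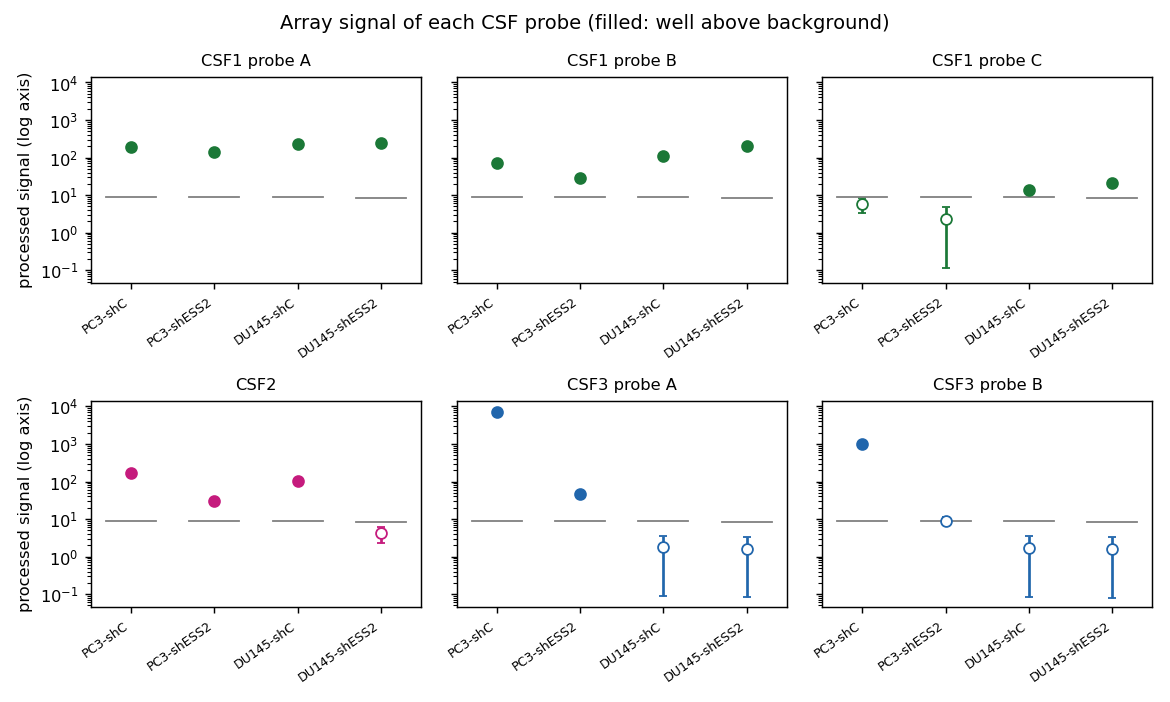
Processed signal (log axis) of the 6 probes of CSF1, CSF2 and CSF3 on the 4 arrays, with 1 array per condition. Filled points are well above background, open points are dim, bars are the scanner software's error, and grey lines mark the lowest signal well above background on each array. CSF1 probes A, B and C are A_33_P3354935, A_33_P3354940 and A_33_P3354945, and CSF3 probes A and B are A_23_P501754 and A_33_P3222424. CSF3 probe A stands at 7200 in PC3-shC and at 45.9 in PC3-shESS2, and CSF2 drops in both lines.

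**Figure D2:**
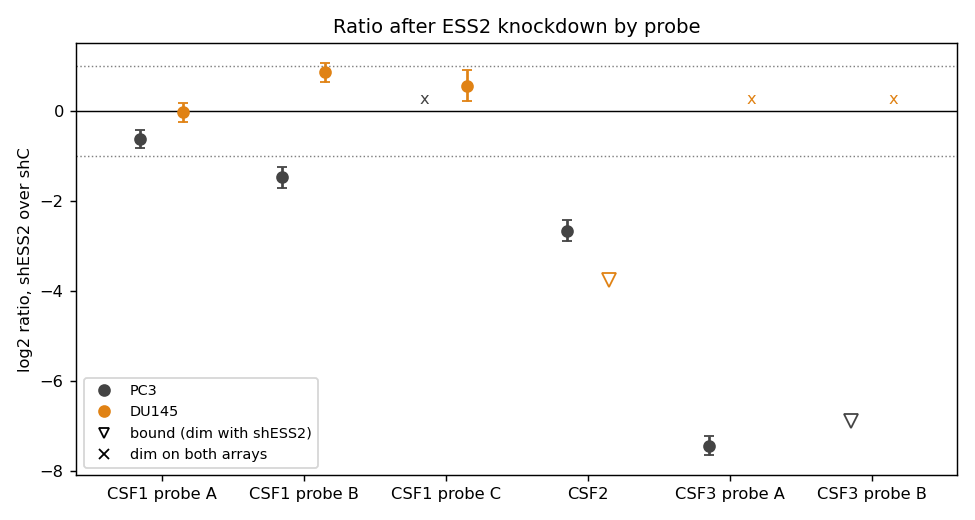
Log2 ratio of shESS2 to shC for each probe in PC3 (dark) and DU145 (orange), with the scanner software's error as bars, 1 array per condition. Open triangles are bounds, crosses mark probes dim on both arrays of a line, and dotted lines mark 2-fold. CSF1 probe B lies at −1.47 in PC3 and at 0.86 in DU145.

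Among the genes compared in PC3, 16763 in number, 3.87% were more than 2-fold lower with shESS2 and 3.88% more than 2-fold higher. CSF2 and CSF3 passed 2-fold, both lower, and the brightest CSF1 probe did not. Because this contrast chose the genes, nothing is read from that count. CSF3 had the third lowest ratio among the 15763 genes well above background on both PC3 arrays, CSF2 ranked 69 and CSF1 ranked 1312. The median log2 ratio of all genes in PC3 was −0.06.

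In DU145, 16842 genes were compared, of which 2.47% were more than 2-fold lower and 2.36% more than 2-fold higher. Of the 3 members, CSF3 was dim on both arrays and could not be compared, CSF2 passed 2-fold and CSF1 did not. With CSF2 at its bound, 4 of the 16842 ratios, its own included, were at or below it. For CSF1 the brightest probe stood near the middle, with 49.3% of genes at or below it, and the median of all genes was −0.02.

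Of the 3 members, CSF3 had the widest gap between the lines on the shC arrays. Between the shC arrays CSF3 was at least 671-fold higher in PC3 than in DU145 on the brighter probe and at least 90.5-fold higher on the other. CSF2 was 1.30-fold higher in PC3 (log2 ratio 0.38 ± 0.21), and CSF1 was 1.49-fold lower in PC3 on its brightest probe (−0.57 ± 0.20), 1.85-fold lower on the second and at least 1.86-fold lower on the third. These errors do not cover the scaling of the arrays, and the line differences of CSF1 and CSF2 given below moved with it. For reference, 22.1% of 17475 genes were more than 2-fold higher in PC3-shC than in DU145-shC, and 19.9% were more than 2-fold lower.

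Between the shESS2 arrays CSF3 was still at least 4.23-fold higher in PC3 on the brighter probe, and CSF2 was at least 2.77-fold higher in PC3. CSF1 was 2.23-fold lower in PC3 on its brightest probe, 9.32-fold lower on the second and at least 3.01-fold lower on the third. All CSF1 probes thus read lower in PC3 than in DU145 in both the control and the knockdown pair.

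The line difference was tested with limma over all 4 arrays, with knockdown as a covariate and 1 residual degree of freedom. CSF1 was lower in PC3 by a log2 difference of −0.86 (SE 0.23, limma adjusted p = 0.044). CSF2 was higher by 0.92 (SE 0.33, limma adjusted p = 0.085), which did not pass 0.05, and it enters the fit with 1 dim value at its bound. CSF3 passed the filter on dim genes only through its PC3 arrays, and both of its DU145 values are bounds, so its fitted difference of 5.74 is a description with no test. The fit called 52.3% of 17126 genes, so a call for CSF1 is no more than the background. With scaling to the median the calls turned, as CSF1 reached −0.47 (limma adjusted p = 0.185) and CSF2 1.31 (limma adjusted p = 0.022). Line, slide, scan, software version and annotation release coincide on these arrays and cannot be told apart.

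The receptors gave low signals or were dim in these lines. CSF1R, the receptor of CSF1, read 43.8 in PC3-shC and was dim on the other 3 arrays at 3.73, 5.49 and 1.96, so that it was at least 5.35-fold lower in PC3-shESS2 than in PC3-shC. CSF3R read 50.3 in PC3-shC and 58.8 in PC3-shESS2, against 34.1 in DU145-shC and 61.2 in DU145-shESS2, log2 ratios of 0.08 and 0.80. CSF2RB, the shared signalling chain, read 24, 22, 15 and 18.8 in that order of arrays. CSF2RA, the ligand-binding chain for CSF2, was dim in PC3 and read 17.3 in DU145-shC and 14.4 in DU145-shESS2. IL3RA, the chain for interleukin 3, was dim in PC3 and read 10.5 in DU145-shC, and IL5RA, the chain for interleukin 5, was dim on all 4 arrays. Over the 6 receptor genes, 3 could be compared in PC3, of which CSF1R passed 2-fold (lower), and 4 in DU145, of which none did, where over all genes 3.87% were more than 2-fold lower in PC3 and 2.47% in DU145.

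Downstream of the receptors, JAK2, the kinase bound by the CSF2 and CSF3 receptors, read 184 in PC3-shC and 559 in PC3-shESS2 (log2 ratio 1.46), against 66.6 and 50.3 in DU145 (−0.45). STAT3, STAT5A and STAT5B, the transcription factors these receptors activate, were dim on both PC3 arrays, where their highest signal was 8.87. PC3 cells are known to lack the chromosomal segment that holds these STAT genes. In DU145 STAT3 read 299 and 443, STAT5B 903 and 708, and STAT5A 42.8 and 21.5 (log2 ratio −1.03). SOCS3, a feedback inhibitor of these receptors, had log2 ratios of −0.13 in PC3 and 0.89 in DU145. Of the 15 signalling genes, 12 were compared in PC3 with JAK2 alone past 2-fold (higher), and 15 in DU145 with STAT5A alone past 2-fold (lower). Their median log2 ratios were −0.00023 and −0.03, against −0.06 and −0.02 over all genes, of which 3.88% were more than 2-fold higher in PC3 and 2.47% lower in DU145.

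Other blood growth factors that could be compared had smaller ratios than CSF2 and CSF3. IL7, a lymphocyte growth factor, read 40.8 in PC3-shC and 19.3 in PC3-shESS2 (log2 ratio −1.22) and was dim in DU145. FLT3LG, the ligand of FLT3, had log2 ratios of −0.85 in PC3 and −0.74 in DU145. IL11 read 903 and 702 in PC3 and 1450 and 1620 in DU145, and KITLG, the stem cell factor gene, had ratios of 0.33 and 0.29. IL3, which lies beside CSF2 on chromosome 5, was dim on all 4 arrays, as were IL34, the second ligand of CSF1R, IL5 and EPO. Of 10 such genes 6 were compared in PC3 with IL7 alone past 2-fold, and 4 in DU145 with none past it, at medians of −0.23 and 0.17, against all-gene shares of 3.87% lower in PC3 and 2.47% in DU145 and medians of −0.06 and −0.02.

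Among the inducers of CSF expression, the interleukin 1 genes were lower in PC3-shESS2. IL1B read 43800 in PC3-shC and 3170 in PC3-shESS2 (log2 ratio −3.93), and IL1A read 90.5 and 21.7 (−2.20). Both were dim on the DU145 arrays, so that a fall of IL1A or IL1B with knockdown could not be measured there. The receptor IL1R1 and the antagonist IL1RN were higher in PC3-shESS2, at 2.12 and 1.48, although a second IL1RN probe gave a smaller ratio under 2-fold. TNF read 22.8 in PC3-shC and was dim in PC3-shESS2, and it read 34.6 in DU145-shC and was dim in DU145-shESS2. It was at least 2.33-fold lower in PC3 and at least 4.37-fold lower in DU145, which puts TNF beside CSF2 among the genes lower in both lines. NFKBIZ, a cofactor of NF-κB that is itself induced by interleukin 1, had log2 ratios of −1.62 in PC3 and −0.58 in DU145, and TLR3, a receptor for double-stranded RNA, −1.41 and −0.27. In this list of 27 genes, 20 were compared in PC3, with 5 more than 2-fold lower and 2 higher, and 18 in DU145, with 1 lower. Over all genes 3.87% were more than 2-fold lower and 3.88% higher in PC3, and 2.47% lower in DU145. The medians were −0.22 in PC3 and −0.20 in DU145, against −0.06 and −0.02 over all genes.

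The transcription factors of CSF genes that passed 2-fold were all higher with shESS2. RELA, the p65 subunit of NF-κB, had log2 ratios of 0.08 in PC3 and 0.12 in DU145, and NFKB1, which encodes p105 and p50, −0.17 and −0.66. RELB and NFKB2, of the alternative NF-κB pathway, had ratios of 0.12 and 0.25 in PC3 and of −0.86 and −0.63 in DU145. FOS, an AP-1 subunit, read 1810 in DU145-shC and 5260 in DU145-shESS2, 2.83-fold higher, and JUNB had a ratio of 1.06 there. FOSB was higher in both lines, by at least 1.49 in PC3 and by 1.40 in DU145 on the log2 scale. NFAT5 and ETS1 were higher in PC3, at 1.28 and 1.11. None of the 25 factors compared in PC3 or the 26 in DU145 was more than 2-fold lower, and 3 in each line were more than 2-fold higher, with medians of 0.12 and −0.08, against −0.06 and −0.02 over all genes. Over all genes 3.88% were more than 2-fold higher in PC3 and 2.36% in DU145.

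Factors that bind AU-rich or stem-loop elements set the decay of such mRNAs. ZC3H12A, an RNase that degrades inflammatory mRNAs and is itself an NF-κB target, read 3920 in PC3-shC and 779 in PC3-shESS2 (log2 ratio −2.47) and 452 and 274 in DU145 (−0.76). ZFP36, which promotes the decay of AU-rich mRNAs, read 842 and 1530 in PC3 (0.72) and 6610 and 14900 in DU145 (1.13). Of these 18 genes, all compared in both lines, ZC3H12A alone passed 2-fold in PC3 and ZFP36 alone in DU145. The medians were −0.02 and −0.06, against −0.06 and −0.02 over all genes, and the all-gene shares were 3.87% lower in PC3 and 2.36% higher in DU145.

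**Figure D3:**
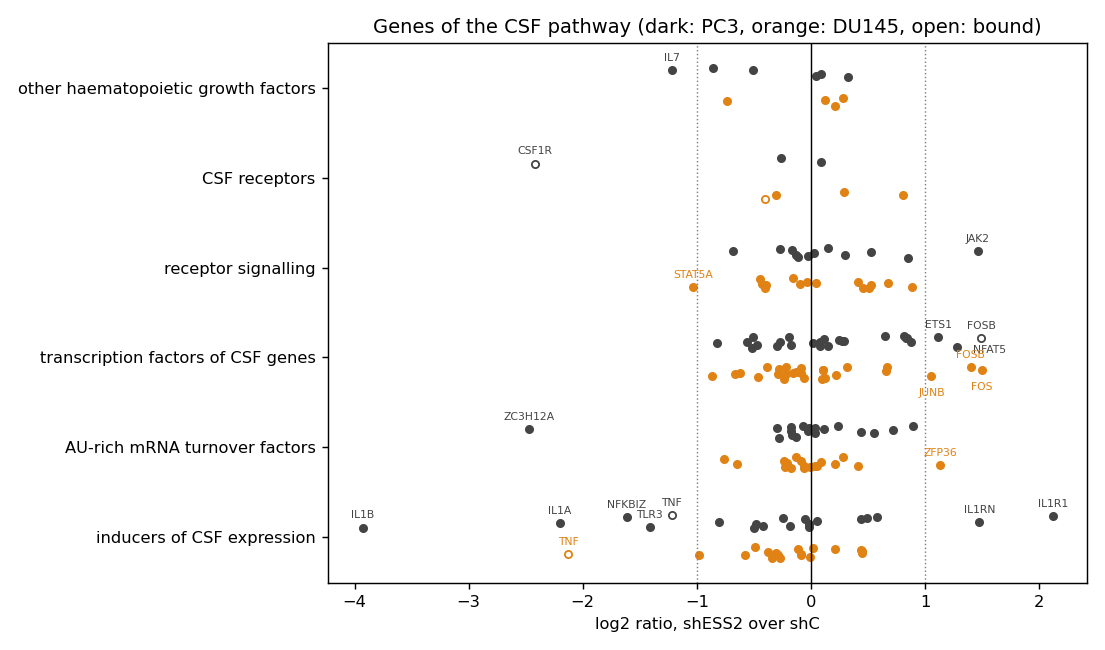
Log2 ratio of shESS2 to shC (x axis) for each compared gene of 6 lists around the CSF genes (y axis), in PC3 (dark) and DU145 (orange), with 1 array per condition. Open points are bounds, dotted lines mark 2-fold and genes past it are named. IL1B at −3.93 in PC3 is the lowest point, and most genes lie between the dotted lines.

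The genes whose pattern over the 4 arrays came closest to each member were found by the distance between log2 values centred on their mean, with dim values at their bound. CSF2 was closest to LTB, which encodes lymphotoxin beta (distance 1.25), then to ESS2 (1.31) and to PLS3, an actin-bundling protein gene (1.45), among 15477 other genes. LTB read 714 in PC3-shC, 79.1 in PC3-shESS2, 794 in DU145-shC and 21.1 in DU145-shESS2, log2 ratios of −3.32 and −5.27. CSF3 was closest to STRA6, the retinol transporter gene (1.27), to BDKRB2, the bradykinin B2 receptor gene (1.82), and to NRAD1, a noncoding RNA (2.16). STRA6 read 9770 in PC3-shC, 135 in PC3-shESS2 and was dim in DU145, and BDKRB2 was lower by a log2 ratio of −7.85 in PC3. CSF1 was closest to TSKU-AS1 (0.05), PTPRS (0.07) and LINC00421 (0.08), a likeness over small differences shared by many genes. With 4 arrays these are descriptions only.

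Up to 3 of the nearest genes with a symbol on each side of the members, in RefSeq order, were set beside them. Those that could be compared had smaller ratios than CSF2 and CSF3, and dim genes give no ratio. Around CSF3, PSMD3, a proteasome subunit gene, had a log2 ratio of −0.15 in PC3, LRRC3C −0.51, THRA −0.34 and NR1D1 −0.29, while MED24, a Mediator subunit gene, read 1420 in PC3-shC and 637 in PC3-shESS2 (−1.30) and had a ratio of 0.28 in DU145. Around CSF2, P4HA2, a collagen prolyl hydroxylase gene, had ratios of 0.54 in PC3 and 0.31 in DU145 and PDLIM4 one of 0.41 in PC3. MEIKIN, IL3 and P4HA2-AS1 were dim in both lines, and ACSL6 was dim in PC3. Around CSF1, GSTM3, a glutathione transferase gene, was higher in PC3-shESS2 (1.07), and GSTM5, EPS8L3 and AHCYL1 stayed between −0.46 and 0.39 in both lines.

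Markers of the cells themselves were checked on all arrays. The 6 epithelial markers, among them KRT8, KRT18 and EPCAM, were well above background on every array, and in DU145 EPCAM was lower with shESS2 (log2 ratio −2.61) and CLDN4 higher (2.22). Of 12 leukocyte and stromal markers 10 were matched, and 6, 7, 5 and 7 of them were well above background on PC3-shC, PC3-shESS2, DU145-shC and DU145-shESS2. Their summed signal was 945, 401, 348 and 470 in the same order. It was lower in PC3-shESS2 together with CSF2 and CSF3, mostly through PECAM1, an endothelial and platelet adhesion molecule gene (338 to 16.4), and CD14, the lipopolysaccharide co-receptor gene (221 to 54.7). The leukocyte gene PTPRC had a log2 ratio of −0.13 in PC3, and CD3E and COL1A2 were dim on all 4 arrays. In DU145 the sum was higher with shESS2 while CSF2 was lower. The part of such cells in the CSF values was not tested.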

How the data were processed

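RNA of the 4 conditions was hybridized to 1-colour (Cy3) Agilent arrays, with 0.1 µg of total RNA per array per the labels. The authors deposited the scanner output, made with Agilent Feature Extraction 12.1.0.3 (PC3) and 12.0.3.1 (DU145), in which each spot has a background-subtracted intensity. A table of scaled intensity values was also deposited, and each of its columns matched the processed signal times 1 constant (3.65, 3.52, 6.17 and 6.09) to within 1% for 100% of spots, with column medians of 41.6, 47.5, 77.6 and 77.3.

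Log2 values were taken of the processed signal deposited by the authors, and the 75th percentile of each array over its 60901 non-control spots was subtracted. Control spots and outlier flags were left out, which removed 5 probes. Spots of a probe were averaged, and a gene with several probes was represented by the brightest over the 4 arrays. Accessions were matched without version to RefSeq symbols (GRCh38.p14), for 35077 probes. Dim values below the lowest passing signal of their array were raised to it. A gene was compared within a line if 1 or both of its arrays passed the background call, and no test was made within a line. limma 3.58.1 (R 4.3.3) was fitted over 4 arrays, to genes well above background on at least 2, with Benjamini-Hochberg adjustment at 0.05. The calculations were tested on simulated data. For the limma fit these had the same independent noise in every gene, no knockdown effect and no dim values. They differ in this from the arrays, so the run checks the code and not the calls made here. Python 3.11.15, numpy 2.4.6, pandas 2.3.3 and matplotlib 3.10.9 were used.

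The members, lists and tests were chosen with earlier results of these data known. Named genes are the members with every probe, list genes past 2-fold in either line or needed to describe a list, the 3 genes of nearest pattern, 3 neighbours on each side, and ESS2, and 1 neighbour is not reported here. Alternatives were quantile normalization, scaling to the median, normexp with an offset of 50 (on the median spot signal), the authors' scaled values, outlier spots kept, the mean of a gene's probes, the plain signal of dim spots, other filters on dim genes, and for limma no knockdown term. The mean over measured probes was added after seeing the data. The number of arrays limits the precision.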

Additional observations from a re-analysis of the deposited data

Results flagged for a closer look

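The CSF1 probe A_33_P3354940 (NM_000757) moved in opposite directions in the lines. Its log2 ratio of shESS2 to shC was −1.47 in PC3 and 0.86 in DU145, with 1 array per condition in each line. The difference between the lines was not tested. The brightest CSF1 probe had ratios of −0.61 and −0.03, and the third probe was dim on both PC3 arrays and gave 0.57 in DU145.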

How the results depend on the processing

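Of 39 alternative log2 ratios of the members, 38 stayed on the same side of 2-fold, and 21 moved by less than the median SD of the log2 ratio over all repeated probes (0.084 in PC3 and 0.082 in DU145). Some of these alternatives could not move a ratio, and the 21 include them. No member spot carried an outlier flag, and the plain signal of dim spots matters only where a value is dim. A mean over probes changes nothing where a single probe enters. Of 17 alternative line differences of CSF1 and CSF2, 13 kept their side of the threshold, and of 45 alternative counts of genes 36 stayed within 1.5 times the main count. In PC3 the log2 ratios of CSF1, CSF2 and CSF3 became −0.72, −2.76 and −7.54 with scaling to the median, −0.42, −1.52 and −6.38 with normexp, and −0.52, −2.56 and −7.34 with the authors' scaled values. Quantile normalization gave −2.52 for CSF2 and −7.01 for CSF3, and the mean of a gene's probes gave −0.74 for CSF1, with a probe dim on both arrays included, and −7.16 for CSF3, with a bound included. The mean over the 2 CSF1 probes measured on both PC3 arrays, chosen after seeing the data, was −1.04, past 2-fold. In DU145 the mean of the probes gave 0.47 for CSF1 in place of −0.03, a value within the error of the spots. CSF2 became −1.56 there with normexp and −4.70 with the plain signal of the dim spot. For the line difference in limma, CSF1 lost its call with scaling to the median (−0.47), quantile normalization (−0.82) and no filter on dim genes (−0.86), and CSF2 (1.31) gained one with scaling to the median. Over all alternatives the line difference ranged from −1.39 (mean of probes) to −0.47 for CSF1 and from 0.24 (normexp) to 1.31 for CSF2. The fitted difference of CSF3, given with no test, was 3.67 with normexp, 4.43 with the mean of probes, 5.32 with the authors' scaled values and 6.13 with scaling to the median. The limma adjusted p ranged from 0.018 to 0.185 for CSF1 and from 0.022 to 0.619 for CSF2.

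The count of genes past 2-fold in PC3 was 649 lower and 650 higher. It became 323 and 248 with normexp and 1193 and 1431 with no filter on dim genes, and the split was 803 to 511 with scaling to the median, which moved the PC3 median of all genes to −0.16, and 535 to 792 with the authors' scaled values, at a median of 0.04. In DU145, 416 were lower and 397 higher, 77 and 139 with normexp, 1061 and 959 with no filter, and 270 lower with both arrays well above background. The cause of these shifts was not tested. Leaving out a replicate was not possible with 1 array per condition. Signal over background limits CSF3 in DU145, the third CSF1 probe in PC3 and CSF2 in DU145-shESS2.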
